A study of Mus musculus with 15 samples.

Results

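The 10 genes described here encode interferon ligands and the chains of the interferon receptors. The ligands are Ifnb1 and Ifnk of type I and Ifnl2 and Ifnl3 of type III. The receptor chains are Ifnar1 and Ifnar2 for type I, Ifngr1 and Ifngr2 for type II, and Ifnlr1 and Il10rb for type III. They were taken by name from the 50600 genes of the deposited count tables, and all 10 were found there.

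Poly(A) RNA was sequenced from primary epithelial cells sorted by flow cytometry (FACS) from 8-week-old male mice of strain C57BL/6J. Each of 5 groups had 3 libraries. From the thymus came the cortical epithelium (cTEC) and the medullary epithelium (mTEC), and from outside it the epithelia of the skin, the colon and the lung. All mice were of the same strain, with no treatment or engineered allele in the labels. A library was made from cells pooled from 5 mice, so it averages over mice. The series asks which mechanisms underlie the different MHC class I levels of these epithelia. A KAPA RNA Stranded PolyA kit served for cTEC, mTEC and skin, and a KAPA RNA HyperPrep PolyA kit for the other groups. In any comparison of colon or lung with the other groups, kit and tissue cannot be told apart.

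Interferons are secreted cytokines that switch on antiviral genes and the genes of MHC class I presentation. Type I interferons (the interferon alphas, beta and kappa) bind a receptor of IFNAR1 and IFNAR2 that is found on most cells. Interferon gamma, the type II interferon made mainly by T and NK cells, binds IFNGR1 and IFNGR2. Type III interferons (the lambdas) bind IFNLR1 paired with IL10RB, a chain shared with the receptors for IL-10 and IL-22, and act mostly on epithelia. Medullary thymic epithelial cells transcribe many genes that are otherwise restricted to other tissues, in part through the regulator Aire, and constitutive interferon beta expression has been described in them.

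Ifnl2 and Ifnl3 lie next to each other on chromosome 7 and are near-identical copies. Over 582 aligned coding bases they differ at 17 (97.1% identity), and the longest stretch without a difference is 166 bases. A sequenced read from such a stretch does not say which gene it came from. Of all windows of 50 bases in the Ifnl3 coding sequence, 38.8% also occur in Ifnl2, and 13.9% of windows of 100 bases do. The stretch of 150 bases with the most differences is shown because it holds 10 of the 17 bases by which reads can be assigned to one copy or the other. It runs from base 414 to base 563 of both coding sequences (GRCm38 transcripts of GENCODE M21, 5′ to 3′ on the coding strand), and the capitals mark the differing bases.
Ifnl2: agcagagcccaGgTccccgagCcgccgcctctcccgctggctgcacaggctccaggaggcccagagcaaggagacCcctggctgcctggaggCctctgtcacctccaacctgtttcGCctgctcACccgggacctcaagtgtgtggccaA
Ifnl3: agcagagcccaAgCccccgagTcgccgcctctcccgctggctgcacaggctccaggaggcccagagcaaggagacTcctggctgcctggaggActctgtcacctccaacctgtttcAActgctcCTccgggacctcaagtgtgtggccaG

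On GRCm38, Ifnb1 lies at chr4:88522025-88522774 (minus strand) and Ifnk at chr4:35152056-35154005 (plus strand), inside the span of Mob3b, which is on the other strand. Ifnl2 is at chr7:28508836-28510455 (minus strand) and Ifnl3 at chr7:28522836-28524322 (plus strand), both inside the span of Samd4b. The genes of 4 receptor chains share 192.8 kb of the plus strand of chromosome 16: Ifnar2 (chr16:91372783-91405589), Il10rb (chr16:91406164-91425834), Ifnar1 (chr16:91485238-91507441) and Ifngr2 (chr16:91547072-91565623). Ifngr1 (chr10:19591949-19610229) and Ifnlr1 (chr4:135686287-135708181) lie elsewhere, both on the plus strand. All 10 are annotated as protein-coding.

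The libraries held 12946533 to 41978665 reads assigned to genes on the sense strand, with the fewest in skin and the most in lung. Markers matched the group labels: the 5 cTEC markers summed to 2371 to 7977 CPM in cTEC and to at most 427 CPM elsewhere, and the 5 lung epithelial markers to at least 9372 CPM in lung and to at most 187 CPM elsewhere. CPM is the usual depth-scaled count, the reads of a gene scaled to the gene reads of its library, here after TMM scaling, which evens out library composition. The 5 mTEC markers reached 651 to 1237 CPM in the cTEC libraries, against 2451 to 2858 CPM in mTEC. All 8 myeloid markers had reads in lung, with a sum of 1768 to 3299 CPM against at most 194 CPM in the other groups. The 6 fibroblast markers ranged from 1256 to 7572 CPM over the skin libraries. In 1 skin library, replicate 1, the noncoding RNA Gm42418 took 14.8% of gene reads, against 0.979% to 4.89% in the other 14.

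The interferon ligands were rare, and nearly all of their reads came from the thymus. Ifnb1, Ifnl2 and Ifnl3 had 46, 98 and 75 reads over the 3 mTEC libraries, and 2, 20 and 30 over the 3 cTEC libraries. Outside the thymus, Ifnl2 and Ifnl3 had no read in any of 9 libraries, Ifnb1 had 5 reads in a single lung library, and Ifnk had 6 in a single skin library. A total of 0 reads does not show absence: at the summed depth of a group, 3 reads would correspond to 0.0781 CPM in skin, 0.0401 CPM in colon and 0.0302 CPM in lung. These limits, and the intervals given for reads, cover counting error only.

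Ifnb1, which encodes interferon beta, had 23, 5 and 18 reads in mTEC replicates 1 to 3, or 1.16, 0.279 and 0.781 CPM. It had 1, 1 and 0 reads in cTEC, 0, 5 and 0 in lung, and 0 in all 6 libraries of skin and colon. The lowest mTEC library equalled the highest lung library in reads, but at 0.279 CPM it stood above the 0.145 CPM of that deeper lung library, so the mTEC libraries did not overlap any other group in CPM. Ifnb1 was too sparse for the model fitted across genes. An exact permutation test over all 1401400 ways of placing the 15 libraries in 5 groups of 3 gave p = 0.00559 for its differences among groups (two-sided, 1 of 2 genes tested in this way). Summed over libraries, Ifnb1 in mTEC was 18.8-fold above the limit of 3 reads in colon and 9.68-fold above that in skin. These 2 values take the summed mTEC reads as exact. Against cTEC the ratio of summed reads, each scaled to its depth, was 21.5, with a counting interval of 5.62 to 183, and against lung it was 15 (5.99 to 48.5).

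Ifnk encodes interferon kappa, known from keratinocytes. It had 6 reads in skin replicate 2, 3 reads in mTEC replicate 1 and none in the other 13 libraries. The skin value came from 1 of 3 libraries, and the exact permutation test across the groups gave p = 1.0. A difference between groups was not detectable at this depth.

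Ifnl2 and Ifnl3 encode interferon lambda 2 and lambda 3. Ifnl2 had 51, 22 and 25 reads in mTEC (1.63 ± 0.816 CPM, SD, n = 3) and 12, 3 and 5 in cTEC (0.339 ± 0.209 CPM). Ifnl3 had 37, 21 and 17 reads in mTEC (1.26 ± 0.566 CPM) and 10, 9 and 11 in cTEC (0.531 ± 0.0746 CPM). Every mTEC library was above every cTEC library for both genes, and all 6 thymic libraries were above the 9 others. Both genes passed the filter on low counts only through mTEC, the group where they were highest. Without reads, skin, colon and lung are represented by the limit of 3 reads over a group. Summed over libraries, Ifnl2 in mTEC was 20.6-fold above this limit in skin, 40.1-fold above it in colon and 53.4-fold above it in lung. For Ifnl3 these values were 15.8-fold, 30.7-fold and 40.8-fold. The cTEC values were smaller, at 4.51-fold to 11.7-fold for Ifnl2 and 6.76-fold to 17.5-fold for Ifnl3. All of them take the summed thymic reads as exact, without their counting error or the spread between pools.

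**Figure D1:**
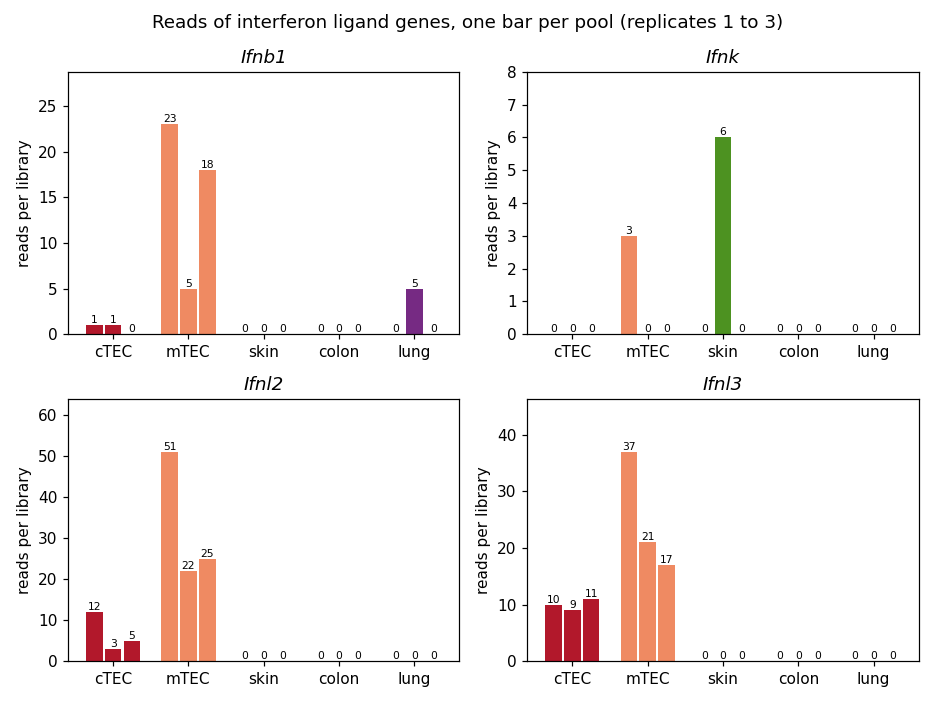
Sense reads per library (vertical axis, 1 bar per pool in the order of replicates 1 to 3, number on each bar) for the 4 ligand genes in the 5 groups. The 3 mTEC bars of Ifnb1 (23, 5 and 18), Ifnl2 (51, 22 and 25) and Ifnl3 (37, 21 and 17) stand above the cTEC bars, and Ifnl2 and Ifnl3 have 0 reads in all 9 libraries from outside the thymus.

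The difference between the thymic groups was less certain than that between thymus and the rest. In edgeR's quasi-likelihood test the log2 fold change of mTEC over cTEC was 2.22 ± 0.72 (SE) for Ifnl2, with an adjusted p of 0.0553, and 1.23 ± 0.62 for Ifnl3, with an adjusted p of 0.191. Neither passed the threshold of 0.05. Both genes entered the fits only through mTEC, where they were highest, so the p-values here are descriptive and no result is drawn from them. The Ifnl2 difference did pass when only the cTEC and mTEC libraries were fitted (edgeR adjusted p = 0.023), and also without any 1 of the skin libraries (edgeR adjusted p = 0.0352 to 0.0463). The counting interval of the mTEC to cTEC ratio was 2.81 to 7.82 for Ifnl2 and 1.51 to 3.69 for Ifnl3.

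The other deposited quantification, RSEM, shares reads that match several genes among them, and its counts for the lambda copies differed from the sense reads. In mTEC it assigned 112.71 expected counts to Ifnl2 against 98 sense reads, and 59.29 to Ifnl3 against 75. In cTEC replicate 3 it listed Ifnl3 at 0 where the sense count was 11, while Ifnl2 was at 5 in both. Values for either copy alone are therefore uncertain, while both quantifications put reads of both copies in every mTEC library and in no library of skin, colon or lung. For Ifnb1, RSEM gave 34 expected counts in mTEC against 46 sense reads.

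Marker values of the cell types that could contribute to the ligand reads were as follows. Aire, the transcriptional regulator that marks mature mTEC, had 613, 242 and 587 CPM in mTEC replicates 1 to 3, so replicate 2 was lowest for both Aire and Ifnb1. For Ifnl2 and Ifnl3 the lowest mTEC level was instead in replicate 3, at 1.08 and 0.737 CPM. The mean level in cTEC, as a percentage of that in mTEC, was 9.21% for Aire, 14.3% for Tnfrsf11a, 19.3% for Fezf2, 19.5% for Cd80 and 48.7% for Ccl21a, the 5 mTEC markers. It was 4.66% for Ifnb1, 20.9% for Ifnl2 and 42.3% for Ifnl3. In bulk samples, fewer cells of a type and less RNA per cell cannot be told apart, and the part of mTEC in the cTEC libraries in these values was not tested. Plasmacytoid dendritic cells are strong producers of type I interferon. Their defining marker Siglech had 7, 1 and 2 reads in mTEC and 1, 2 and 0 in cTEC. All 6 markers listed for them had reads in both, with a sum of 548 to 619 CPM in mTEC and 367 to 488 CPM in cTEC. Their sum was 1193 to 1326 CPM in colon, 83 to 102 CPM in skin and 90.3 to 107 CPM in lung. Ptprc, which marks all haematopoietic cells, was at 3.74 to 7.39 CPM in mTEC and at 5.24 to 13.7 CPM in cTEC, above the 0.895 to 1.38 CPM of colon. The 8 myeloid markers summed to 98.6 to 194 CPM in mTEC and to 45.0 to 63.5 CPM in cTEC. The part of these cells in the ligand reads was not tested.

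A further 17 interferon genes were looked up and were rarer still, with 54 reads in all 15 libraries and none that passed the filter. The 13 Ifna genes and Ifnab had 14 reads together, of which 10 were in mTEC, 3 in cTEC and 1 in lung, and 6 of these 14 genes had no read at all. Ifna4 had the most of them, with 4 reads, all in mTEC. Ifng, the type II ligand, had 21 reads in mTEC, 14 in cTEC, 1 in colon and none in skin or lung. The mean level of Ifng was 0.344 ± 0.316 CPM in mTEC and 0.233 ± 0.238 CPM in cTEC (SD, n = 3). For Ifng the mTEC libraries (0.704, 0.112 and 0.217 CPM) and the cTEC libraries (0.476, 0 and 0.224 CPM) overlapped. The 9 T cell markers summed to 94.0 to 127 CPM in cTEC and to 32.7 to 55.5 CPM in mTEC. They reached at most 6.01 CPM in skin, colon and lung. The 4 NK cell markers summed to 1.73 to 3.57 CPM in mTEC, 0.613 to 4.54 CPM in cTEC and at most 0.985 CPM elsewhere, with the defining marker Ncr1 at 0 in both thymic groups. The part of T and NK cells in the Ifng reads was not tested.

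The receptor chains, in contrast to the ligands, were measured in all 15 libraries, and all 6 passed the filter on low counts. By group mean, the order of groups differed from chain to chain. For Ifnar1 and Ifnlr1 only skin and colon changed places, and that pair passed the threshold for neither (edgeR adjusted p = 0.518 and 0.727). Across the 5 groups, 6 of 6 chains differed (edgeR's F test, adjusted p from 5.8e-11 for Il10rb to 0.000116 for Ifnlr1). This is near the background, since 90.6% of the 19107 genes tested also differed among these epithelia. The 10 comparisons between pairs of groups share libraries, and no result is drawn from their similarity.

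**Figure D2:**
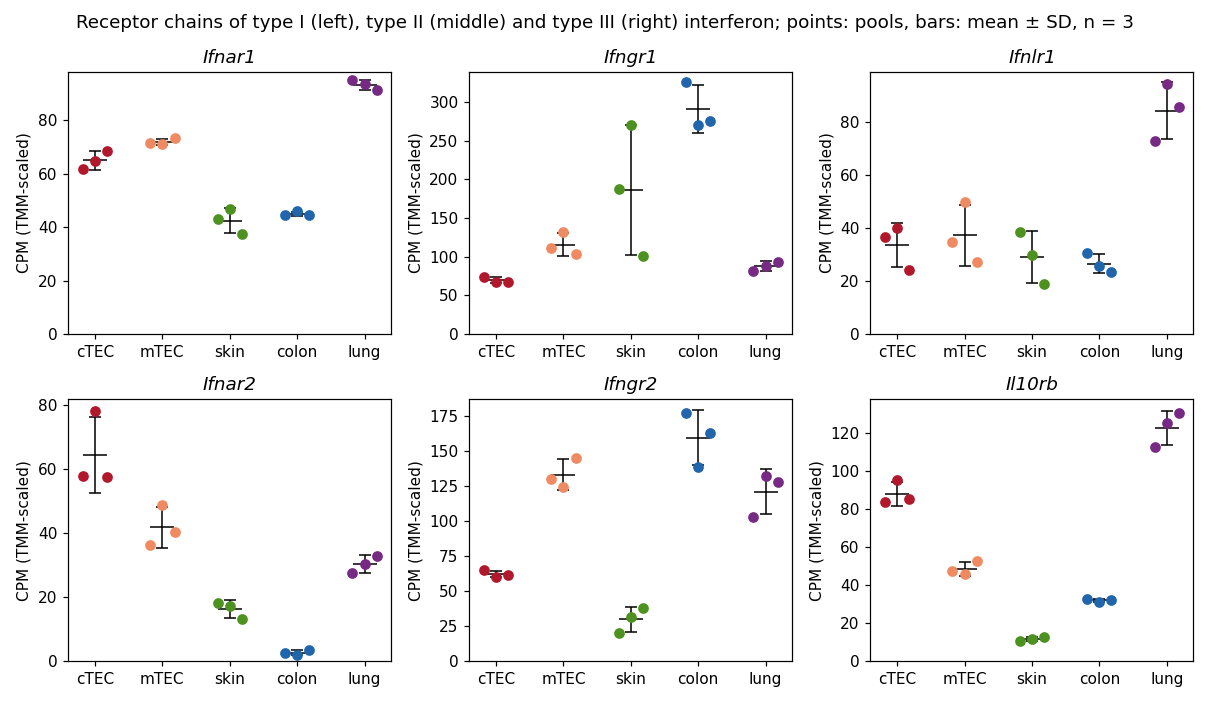
TMM-scaled CPM of the 6 receptor chains by group: each point is a pool, the horizontal bar and whiskers are the mean ± SD of 3 pools, and each vertical axis starts at 0. Lung is highest for Ifnar1, Ifnlr1 and Il10rb, colon for Ifngr1 and Ifngr2, and cTEC for Ifnar2, whose colon pools lie between 2.07 and 3.66 CPM.

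Ifnar1 and Ifnar2, the type I chains, were ordered differently. Ifnar1 was at 94.9, 93.6 and 91.1 CPM in lung, 71.3, 71.1 and 73.3 CPM in mTEC, and 61.5, 64.7 and 68.6 CPM in cTEC. It was at 44.4, 46.0 and 44.6 CPM in colon and at 43.2, 46.7 and 37.3 CPM in skin. By CPM, lung was above all other groups in every library, and colon and skin overlapped. Of the neighbours in this order, lung differed from mTEC (1.30-fold, edgeR adjusted p = 0.00741) and cTEC from colon (1.44-fold, 0.000624), while mTEC did not differ from cTEC (0.352) nor colon from skin (0.518) beyond their spread. The call between lung and mTEC was lost with other scalings, at an edgeR adjusted p of 0.0653 with DESeq2 size factors and 0.246 with upper quartile scaling, and also without the filter on low counts (0.176) and after thinning to the smallest library (0.0633). In TPM, the length-scaled levels from RSEM, these 2 groups overlapped. Lung replicate 3 (35.97 TPM) was below mTEC replicates 1 and 3 (36.55 and 36.24 TPM).

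Ifnar2, which binds interferon more tightly than its partner, had the widest fold range of any chain. It was at 57.8, 78.1 and 57.6 CPM in cTEC, 36.3, 48.9 and 40.6 CPM in mTEC and 27.6, 30.4 and 33.1 CPM in lung. Skin had 18.4, 17.4 and 13.2 CPM and colon 2.51, 2.07 and 3.66 CPM. No group overlapped another. The colon level was lowest, with 15.3-fold less than mTEC and 23.6-fold less than cTEC across kits, and 11.1-fold less than lung within a kit (log2 fold change of lung over colon 3.47 ± 0.23 SE, edgeR adjusted p = 1.24e-08). Skin was 5.95-fold above colon and 1.87-fold below lung (edgeR adjusted p = 2.57e-07 and 0.00186).

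Between the thymic groups Ifnar2 was 1.54-fold higher in cTEC (edgeR adjusted p = 0.0396), with every cTEC library above every mTEC library. The call did not hold with the replicate number as a block (edgeR adjusted p = 0.0538), with DESeq2 size factors (0.0513), nor without any 1 of the cTEC libraries, mTEC replicate 1 or 3, colon replicate 1 or lung replicate 2 or 3 (0.0505 to 0.178). It was also lost with upper quartile scaling (edgeR adjusted p = 0.0525) and without the filter on low counts (0.0872). The mTEC level was 1.38 times that of lung, which missed the threshold (edgeR adjusted p = 0.0606). It passed with DESeq2 size factors (0.0198) and without mTEC replicate 1, skin replicate 3 or colon replicate 2 or 3 (0.032 to 0.0473). In edgeR it also passed with upper quartile scaling (adjusted p = 0.0112), thinning (0.0127) and only mTEC and lung fitted (0.0258). The same held with a filter at 1 CPM in 3 libraries (edgeR adjusted p = 0.0355), without a filter (0.0415), and in DESeq2 (adjusted p = 0.00868).

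Ifngr1 and Ifngr2 form the receptor for interferon gamma, and by mean CPM both were highest in colon. By TPM, Ifngr2 was instead highest in mTEC, at 103 ± 16.8 against 80.4 ± 9.13 in colon (SD, n = 3). Ifngr1, the ligand-binding chain, was at 326, 270.1 and 276 CPM in colon, and at 187, 270.3 and 101 CPM in skin. It was at 111, 132 and 104 CPM in mTEC, 81.5, 88.6 and 93.6 CPM in lung and 74.0, 67.6 and 67.3 CPM in cTEC. The skin libraries spanned the whole range from mTEC to colon and overlapped both. Colon was 3.31-fold above lung (log2 fold change of lung over colon -1.73 ± 0.25 SE, edgeR adjusted p = 3.31e-05), 2.51-fold above mTEC and 4.17-fold above cTEC. In mTEC Ifngr1 was 1.66-fold higher than in cTEC (0.73 ± 0.25 SE on the log2 scale, edgeR adjusted p = 0.0424). This call was lost without any 1 of the cTEC, mTEC, colon or lung libraries (edgeR adjusted p = 0.0542 to 0.123). The mTEC and lung levels, and the lung and cTEC levels, did not differ beyond their spread in the fit of all groups (0.17 and 0.252), but did when only the groups compared were fitted (0.0345 and 0.0186), and mTEC and lung also without skin replicate 3 (0.026).

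The skin spread limits 2 further calls of Ifngr1. Skin was 1.61-fold above mTEC (edgeR adjusted p = 0.0276) and 1.56-fold below colon (0.0359). The first call was lost without mTEC replicate 1 or 3 or skin replicate 1 or 2 (edgeR adjusted p = 0.052 to 0.224), and the second without skin replicate 1 or 3 or colon replicate 1 or 3 (0.0537 to 0.105). The first also failed without the filter on low counts (edgeR adjusted p = 0.055) and with only skin and mTEC fitted (0.155). The second also failed with DESeq2 (adjusted p = 0.0518), and in edgeR with DESeq2 size factors (0.0571) or upper quartile scaling (0.0999). It failed too after thinning to the smallest library (edgeR adjusted p = 0.055) and with only skin and colon fitted (0.167). Without skin replicate 2 the log2 difference of mTEC from skin shrank from -0.68 to -0.31, and without skin replicate 3 that of skin from colon shrank from -0.64 to -0.37. The order of the skin libraries for Ifngr1 was also their order for the basal keratin Krt5, at 12141, 15592 and 6638 CPM in replicates 1 to 3. The fibroblast collagen gene Col1a1 ran the other way, at 1361, 390.1 and 2179 CPM. The part of the cell mixture in the skin values of Ifngr1 was not tested.

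Ifngr2, the signalling chain, was at 177, 138 and 162 CPM in colon, 130.0, 124 and 145 CPM in mTEC and 103, 132 and 128 CPM in lung. These 3 groups lay close together: colon did not differ from mTEC (edgeR adjusted p = 0.229) nor mTEC from lung (0.526) beyond their spread. The cTEC libraries were lower, at 65.0, 60.3 and 61.8 CPM, and the skin libraries lowest, at 20.2, 31.6 and 37.9 CPM. The cTEC level was 1.94-fold below lung and 2.08-fold above skin (edgeR adjusted p = 0.000497 and 0.000291). In mTEC Ifngr2 was 2.13-fold higher than in cTEC, a log2 fold change of 1.09 ± 0.19 SE (edgeR adjusted p = 0.00114), and 4.44-fold higher than in skin. Skin thus combined a high Ifngr1 with a low Ifngr2 level, while cTEC was low in both.

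Ifnlr1 and Il10rb, the type III chains, were both highest in lung. Ifnlr1, which gives the receptor its specificity for lambda interferons, was at 72.8, 94.2 and 85.4 CPM in lung. The other groups were close to each other: 34.5, 49.9 and 27.0 CPM in mTEC, 36.5, 39.9 and 24.2 CPM in cTEC, 38.4, 29.9 and 18.7 CPM in skin, and 30.5, 25.7 and 23.5 CPM in colon. Lung was above every other library. It was 3.17-fold above colon within a kit (log2 fold change 1.66 ± 0.27 SE, edgeR adjusted p = 0.000102), and across kits 2.27-fold above mTEC, 2.51-fold above cTEC and 2.91-fold above skin. None of the 6 pairs among mTEC, cTEC, skin and colon passed the threshold (edgeR adjusted p = 0.127 to 0.737), and their libraries overlapped in CPM. With upper quartile scaling mTEC over colon did pass (0.0334). By TPM, the thymic libraries of Ifnlr1 lay above those of skin and colon. The TPM were 10.8 to 19.0 in mTEC, 10.9 to 14.4 in cTEC, 6.31 to 9.08 in skin and 5.94 to 7.83 in colon. Pairs of groups were not tested on TPM.

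Il10rb showed 5 separate levels. It was at 113, 125 and 130.3 CPM in lung, 83.7, 95.5 and 85.1 CPM in cTEC, and 47.3, 45.8 and 52.8 CPM in mTEC. Colon had 33.0, 31.4 and 32.2 CPM and skin 10.9, 11.9 and 12.7 CPM. No group overlapped another, and each neighbour in this order differed: lung was 1.39-fold above cTEC (edgeR adjusted p = 0.00217), cTEC 1.81-fold above mTEC (0.000188), mTEC 1.51-fold above colon (0.000372) and colon 2.71-fold above skin (1.21e-07). From lung to skin the fold was 10.3 (log2 fold change of skin over lung -3.37 ± 0.13 SE, edgeR adjusted p = 7.3e-11). The calls of Il10rb between these neighbours stayed on the same side of the threshold under every setting tried.

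Lung libraries also held the myeloid marker sums given above, led by Lyz2 at 1892 CPM and Csf1r at 539 CPM on average. Ptprc, the marker of all haematopoietic cells, was at 1.75 to 3.47 CPM in lung. That was below every mTEC and cTEC library and above every colon library. Lyz2 is also made by type II alveolar epithelial cells, and Csf1r is a receptor of macrophages. Myeloid cells express Ifnar1, Il10rb and both type II chains, and the part of these cells in the lung levels was not tested.

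**Figure D3:**
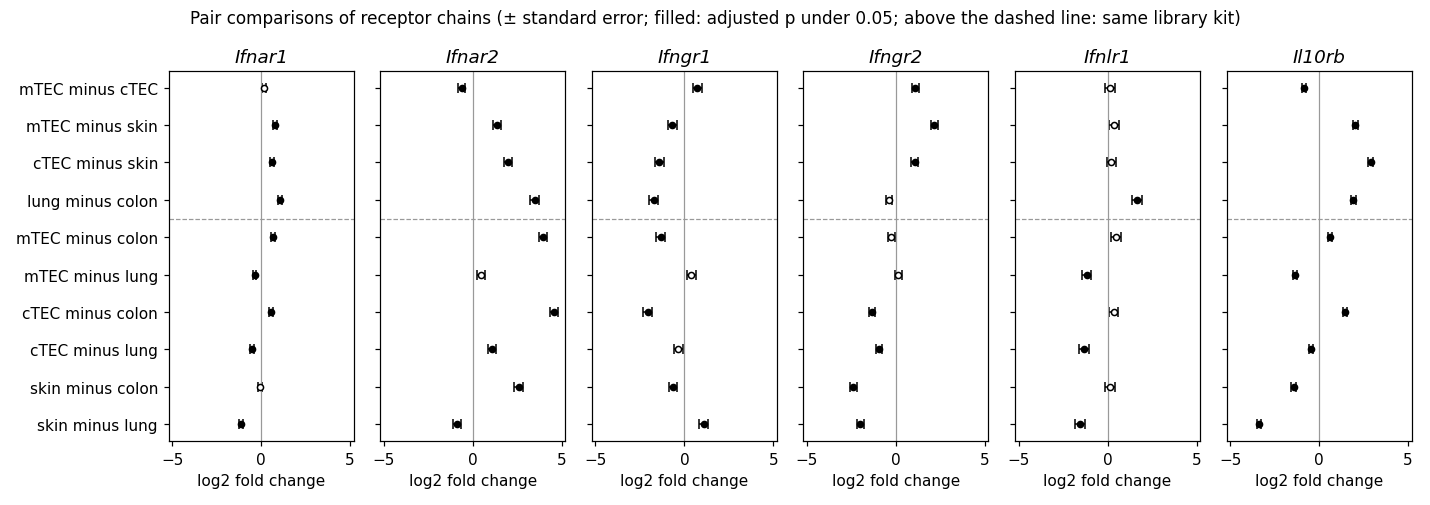
Log2 fold change (horizontal axis, ± standard error) of each receptor chain in the 10 comparisons between pairs of groups, the first-named group over the second; filled points have an adjusted p under 0.05, and pairs above the dashed line share a library kit. Ifnar2 has the widest spread, up to 4.56 for cTEC over colon, and Ifnlr1 is open in all 6 pairs that do not include lung.

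Read by comparison, the 2 thymic groups differed in 4 of 6 chains, with Ifngr1 and Ifngr2 higher in mTEC and Ifnar2 and Il10rb higher in cTEC. The background was 24.7% of all genes called, 15.2% higher in mTEC and 9.45% higher in cTEC, and the median log2 fold change was 0.15 over the 6 chains and 0.07 over all genes tested. Without cTEC replicate 1, 2 or 3 or mTEC replicate 1 or 3 only 2 members were called. Il10rb and Ifngr2 kept their calls in each of those fits.

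Against skin, mTEC differed in 5 of 6 chains, of which 4 were higher in mTEC and Ifngr1 was lower, beside 57% of all genes called (34.6% higher in mTEC, 22.4% higher in skin). The same split, 4 higher and Ifngr1 lower, held for cTEC against skin, beside 56.4% of all genes (32.5% higher in cTEC, 23.9% higher in skin). Lung differed from colon in 5 chains, beside 58.6% of all genes (30.4% higher in lung, 28.3% in colon), with Ifnar1, Ifnar2, Ifnlr1 and Il10rb higher in lung and Ifngr1 higher in colon. The colon level of Ifngr2 was 1.32 times that of lung, which missed the threshold (edgeR adjusted p = 0.0772). It passed when only the lung and colon libraries were fitted (0.0198) and without skin replicate 1 or 3 (0.0221 and 0.0387). With 6 chains only, nothing particular to them is read from these shares.

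Across kits, mTEC differed from colon in 4 chains, 3 higher and 1 lower, with 66% of all genes as the background (36.9% higher in mTEC, 29.1% in colon). From lung it differed in 3 chains, all lower in mTEC, beside 63.6% of all genes (34.9% higher in mTEC, 28.6% in lung). Without skin replicate 3, and when only the mTEC and lung libraries were fitted, 5 chains were called in place of 3. The added chains were Ifnar2 and Ifngr1, both higher in mTEC (edgeR adjusted p = 0.032 and 0.026 without skin replicate 3). In cTEC, 5 chains differed from colon, 3 higher and 2 lower, beside 65.1% of all genes (34.6% higher in cTEC, 30.5% in colon). Also 5 differed from lung, 1 higher and 4 lower, beside 59.5% (30.9% higher in cTEC, 28.6% in lung). Skin differed from colon in 4 chains, 1 higher and 3 lower, beside 58.2% (27.4% higher in skin, 30.8% in colon). From lung skin differed in all 6 chains, 1 higher and 5 lower, beside 60.4% (26.7% higher in skin, 33.7% in lung). The chain that was higher in skin was Ifnar2 against colon and Ifngr1 against lung.

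Levels of different genes can be compared only per unit of transcript length, for which the deposited TPM serve. Since each interferon receptor needs both of its chains, the TPM of one chain was divided by that of the other in each library. These ratios were chosen after the levels had been seen. For type I, the ratio of Ifnar2 to Ifnar1 was 3.20, 3.84 and 2.83 in cTEC, 1.77, 2.30 and 1.97 in mTEC, and 1.37, 1.47 and 1.72 in lung. It was 1.57, 1.03 and 1.29 in skin, and 0.324, 0.311 and 0.314 in colon. By TPM Ifnar2 exceeded Ifnar1 in all 12 libraries from outside the colon, and in colon it was below Ifnar1 in all 3. When each TPM was scaled by the chain's sense reads over its RSEM expected count in the library, Ifnar2 exceeded Ifnar1 in only 7 of 15 libraries, all 6 of the thymus and skin replicate 1. The lung ratios were then 0.811, 0.862 and 0.999. By TPM without this scaling, the group means ran from 0.316 ± 0.00666 in colon to 3.29 ± 0.511 in cTEC (SD, n = 3), a 10.4-fold range.

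For type II, the ratio of Ifngr2 to Ifngr1 was 1.15, 1.30 and 1.33 in lung, 1.08, 0.792 and 1.30 in mTEC, and 0.712, 0.697 and 0.858 in cTEC. It was 0.457, 0.416 and 0.492 in colon and 0.0658, 0.102 and 0.355 in skin. Ifngr2 exceeded Ifngr1 in all 3 lung libraries and in 2 of 3 mTEC libraries, while in every library of cTEC, colon and skin Ifngr1 exceeded Ifngr2. The skin libraries were below those of all other groups. The skin mean of 0.174 ± 0.158 fell to 0.0837 without replicate 3. The group means spanned a 7.23-fold range.

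For type III, Il10rb exceeded Ifnlr1 in 14 of 15 libraries by TPM and in 13 with the scaling to sense reads, which put skin replicate 2 at 0.993. The ratio was 7.78, 7.78 and 11.5 in cTEC, 5.76, 4.91 and 5.44 in lung, 4.39, 3.16 and 6.91 in mTEC, and 4.04, 4.67 and 5.26 in colon. In skin it was 0.659, 1.21 and 2.22, below every library of the other groups, and the group means spanned a 6.63-fold range. An exact permutation test over the 1401400 groupings of the 15 libraries, run on the log2 ratio, gave p = 5.71e-06 for type I, 9.28e-06 for type II and 0.000279 for type III (1.39e-05, 1.39e-05 and 0.000279 after adjustment over the 3 ratios). The chains were already known to differ among the groups, as did 90.6% of all genes tested. Ratios of other genes were not tested, so nothing particular to these chains is read from these p-values.

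**Figure D4:**
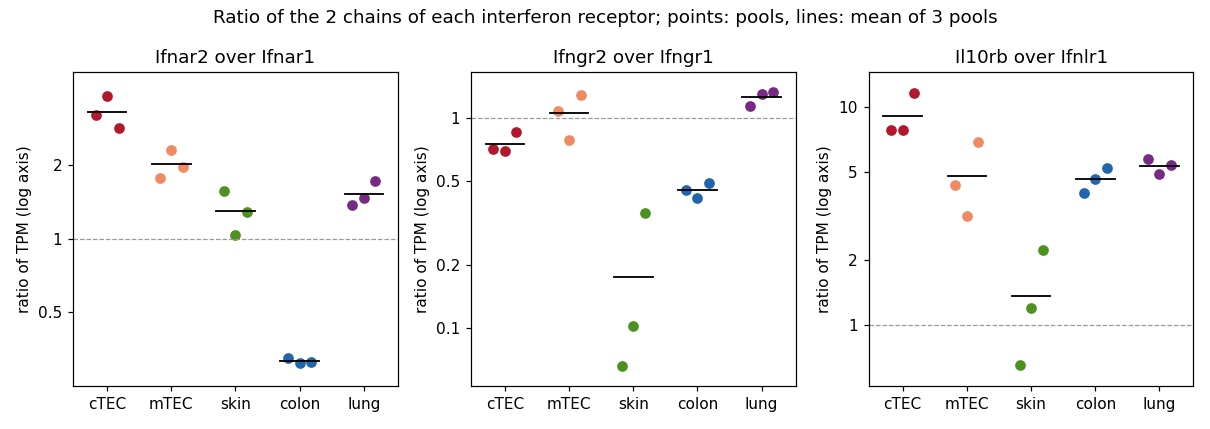
TPM of one receptor chain divided by that of its partner in each pool (points, logarithmic vertical axis), with the mean of 3 pools as a line and equality of the chains as a dashed line. Colon is the lowest group for Ifnar2 over Ifnar1 (0.316), and skin for Ifngr2 over Ifngr1 (0.174) and for Il10rb over Ifnlr1 (1.36).

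A feature of the annotation touches 2 of these chains. The gene model Gm21970 overlaps Ifnar2 and Il10rb on the same strand and had 0 sense reads in every group. The RSEM expected counts were 1.2 to 1.75 times the sense reads for Ifnar2 and 1.19 to 1.48 times for Il10rb, and 0.91 to 0.966 times for the other 4 chains. Sense counts of Ifnar2 and Il10rb are thus lower than the RSEM values by a factor that differs between groups, most for Ifnar2 in colon. With sense counts in place of TPM the permutation p was 1.43e-06 for the type I ratio.

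In TPM, the colon libraries had Ifngr1 at 177 ± 18.5 and Ifnar2 at 4.84 ± 0.198 (SD, n = 3), the highest and the lowest group mean of any chain. Skin held Ifngr1 at 104 ± 36.2 TPM beside 9.70 ± 4.04 TPM of Il10rb and 7.65 ± 1.39 TPM of Ifnlr1. By group mean, Ifnlr1 had the lowest TPM of the 6 chains in cTEC, mTEC, skin and lung, with means from 7.65 in skin to 26.9 in lung, and only in colon was Ifnar2 below it. The skin ranking did not hold in replicate 1, where Il10rb (5.98 TPM) and Ifngr2 (6.38 TPM) were below Ifnlr1 (9.08 TPM). With the scaling to sense reads, Il10rb exceeded Ifnlr1 in 1 of 3 skin libraries. The most abundant chain was Il10rb in cTEC (115 ± 9.51 TPM) and lung (143 ± 12.2 TPM), Ifngr2 in mTEC (103 ± 16.8 TPM) and Ifngr1 in skin and colon. The ligands lay far below: their highest values in any library were 8.96 TPM for Ifnl2, 4.98 TPM for Ifnl3 and 2.60 TPM for Ifnb1, all in mTEC replicate 1.

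Other genes of the pathway were taken from lists of receptor subunits that pair with Il10rb, signal transducers, negative regulators, and sensing and induction. Among 6 signal transducers, only Stat3, which also carries the signals of IL-10 and IL-22, differed between mTEC and cTEC, beside 24.7% of all genes called. Stat3 was 1.88-fold higher in mTEC (512 ± 61.4 against 272 ± 28.3 CPM, edgeR adjusted p = 0.00244). The median log2 fold change of the 6 genes was 0.12, beside 0.07 for all genes.

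Against skin, 3 of the 6 transducers were higher in mTEC and none lower, and in cTEC 2 were higher and 1, Stat3, was lower. These shares lie beside 34.6% of all genes higher and 22.4% lower in mTEC than in skin, and 32.5% higher and 23.9% lower in cTEC. The median log2 fold change of the 6 genes was 0.34 for mTEC and 0.11 for cTEC, beside 0.22 and 0.19 over all genes. Stat2 and Irf9 are subunits of the factor that type I and type III interferons activate. Irf9, its main DNA-binding subunit, was 5.50-fold higher in cTEC and 4.78-fold higher in mTEC than in skin (edgeR adjusted p = 1.25e-07 and 2.72e-07). Stat2 was at 38.1 ± 13 CPM in skin, 4.22-fold below cTEC and 4.43-fold below mTEC (edgeR adjusted p = 2.17e-06 and 1.74e-06). Between lung and colon 5 of 6 differed: Irf9 (2.37-fold) and Stat2 (2.10-fold) were among the 3 higher in lung, and Jak2 and Tyk2 were the 2 higher in colon, beside 30.4% of all genes higher in lung and 28.3% in colon. The Tyk2 call was lost without colon replicate 3 or lung replicate 3 (edgeR adjusted p = 0.0535 and 0.0728).

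Of the 7 negative regulators, only Il22ra2 differed between mTEC and cTEC, beside 24.7% of all genes called. It encodes a soluble decoy receptor for IL-22. Il22ra2 had few reads, with 27 over the mTEC libraries (0.436 ± 0.141 CPM) and 2 over the cTEC libraries (0.0344 ± 0.0301 CPM). In skin it reached 21.7 ± 10.9 CPM. Usp18 binds Ifnar2 and damps type I signalling, and Socs1 inhibits the JAK kinases. Usp18 was 10.5-fold and Socs1 5.39-fold higher in mTEC than in skin, and 8.30-fold and 9.15-fold higher in cTEC than in skin. In both of those comparisons 4 of 7 were higher in the thymic group and Il22ra2 was lower, beside 34.6% of all genes higher in mTEC and 32.5% in cTEC. The median log2 fold change of the 7 genes was 0.95 for mTEC and 1.08 for cTEC over skin. Usp18 was at 1.18 ± 0.438 CPM in colon, 42.4-fold below lung (edgeR adjusted p = 1.33e-08), and 6 of 7 negative regulators were higher in lung than in colon, beside 30.4% of all genes.

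The 3 receptor subunits that pair with Il10rb were distributed unlike it. Il10ra, the specific chain of the IL-10 receptor, was at 11.5 ± 4.11 CPM in mTEC, 3.35 ± 1.66 CPM in cTEC and at most 0.921 CPM on average elsewhere. It is mainly known from haematopoietic cells, and its call between mTEC and cTEC (edgeR adjusted p = 0.0334) was lost without cTEC replicate 1 or 2 or mTEC replicate 1 or 3 (0.0876 to 0.126). Il22ra1, the specific chain of the IL-22 receptor, was highest in colon at 9.68 ± 0.828 CPM, 5.16-fold above lung (edgeR adjusted p = 0.016, or 0.0719 without lung replicate 3). Il20ra, a chain of the IL-20 receptor that in humans also pairs with IL10RB to bind IL-26, was at 50.9 ± 32.1 CPM in skin and at most 0.335 CPM in every other library. Skin, the group with the least Il10rb, thus had the most Il20ra.

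Among the 18 genes of sensing and induction, 17 passed the filter, and 8 of them differed between mTEC and cTEC (5 higher and 3 lower in mTEC), beside 24.7% of all genes (15.2% higher in mTEC, 9.45% higher in cTEC). Tmem173, which encodes the DNA-sensing adaptor STING, was 2.94-fold higher in mTEC (160 ± 10.5 against 54.6 ± 19.0 CPM, edgeR adjusted p = 0.000828). Cgas, the enzyme upstream of it, was 4.01-fold higher in mTEC (edgeR adjusted p = 0.0228), which no longer passed when cTEC replicate 3, or mTEC replicate 1 or 2, was left out (0.0512 to 0.0847). Irf3, the factor that activates the Ifnb1 promoter, was 1.46-fold lower in mTEC (0.00917), and Myd88 was 1.99-fold lower (0.0367). The Irf3 call was lost without mTEC replicate 1 (0.0581) and that of Myd88 without cTEC replicate 1 or 2 or mTEC replicate 1 or 3 (0.0558 to 0.213).

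Against skin, 10 of the 17 were higher and 3 lower in mTEC, beside 34.6% and 22.4% of all genes, and the same numbers held for cTEC, beside 32.5% and 23.9%. Irf8 was at 1.59 ± 0.326 CPM in skin, 119-fold below mTEC and 136-fold below cTEC. Ddx58, which encodes the RNA sensor RIG-I, was 8.69-fold higher in mTEC and 8.61-fold higher in cTEC. Between lung and colon 3 were higher in lung, Ddx58 the most at 6.01-fold, and 7 were higher in colon (30.4% and 28.3% of all genes), among them Irf8 at 10.1-fold and Ticam1 at 2.29-fold.

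**Figure D5:**
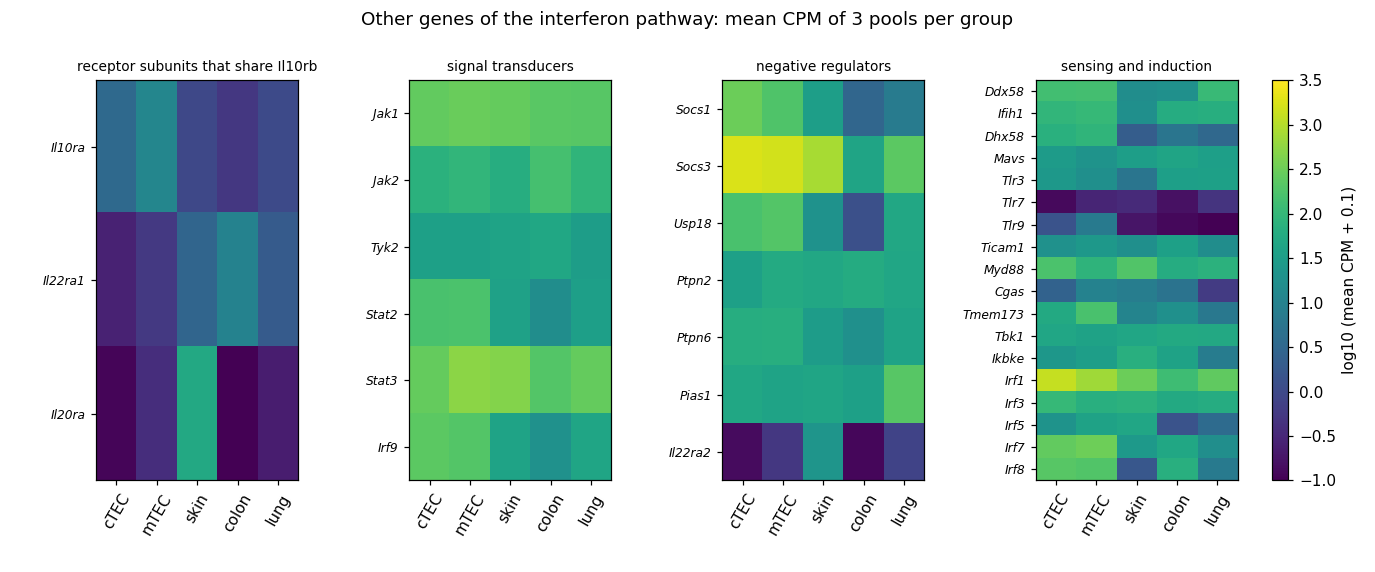
Mean CPM of 3 pools (colour, log10 scale after adding 0.1) for the genes of the 4 pathway lists in the 5 groups. Stat2, Irf9, Usp18, Dhx58 and Irf7 are brightest in cTEC and mTEC, while Il20ra and Il22ra2 are brightest in skin.

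Over the 15 libraries, the genes most like the ligands and the most variable receptor chains were sought among tested genes with a mean of at least 1 CPM, by Pearson's r of log2 CPM. For Ifnl2 these were Idi2 (r = 0.996), Il5ra (0.99) and Psg27 (0.989), and for Ifnl3 Lrp1b (0.996), Myh15 (0.99) and Cd70 (0.989). For Il10rb they were Erich3 (0.978), Zkscan3 (0.974) and Anapc16 (0.972), and for Ifnar2 Zfp651 (0.992), Ntf5 (0.988) and Eif4e3 (0.986). The libraries form 5 groups of 3 and share depth and kit within groups, so these values describe likeness of the group pattern only.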

How the data were processed

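The authors deposited, per library, read counts per gene with unstranded and stranded columns, and RSEM tables with expected counts, TPM and FPKM. The submitters' processing notes name bcl2fastq 2.20, STAR 2.5.1b, RSEM 1.2.28 and GRCm38. For the annotation behind the counts no release is named. The sense column was recognised because it held 8.43 to 19.3 times the reads of the opposite strand. Gene names and coordinates came from GENCODE M21, which held 50376 of the 50600 identifiers.

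The main test was edgeR 4.0.16 (R 4.3.3) on the deposited sense counts: TMM scaling, filterByExpr, 1 quasi-likelihood model of 5 groups over 15 libraries, and Benjamini-Hochberg adjustment over all 19107 genes that passed (threshold 0.05). Ifnb1 and Ifnk did not pass the filter and were tested by exact permutation. Standard errors are the log2 fold change divided by the root of F. The deposited FPKM served as an alternative to TPM, and rounded expected counts as an alternative to the sense counts; DESeq2 1.42.0, other scalings, filters, thinning, a replicate block and leave-one-out fits were also run. The fit was tested on simulated counts. Robust dispersion and the chain ratios on sense reads were added after seeing the data. Ligand calls were counted only between mTEC and cTEC.

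The labels do not say whether the pools of a group came from separate mice or days, so p-values measure the spread between these pools. Replicate numbers are shared across groups. Deviations of same-numbered cTEC and mTEC libraries correlated at 0.29, 0.278 and 0.156, all above the limit of 0.1 set for pairing, which did not hold for every number in other pairs of groups. No 2 replicates agreed within counting noise.

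The members and gene lists were chosen with earlier results of these data known. From the pathway lists, up to 2 genes per direction with the smallest adjusted p were named in each of the 4 pairs within a kit. Promoter and protein sequences were not used here. A gene of the signal transducer list is not reported here.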

Additional observations from a re-analysis of the deposited data

Results flagged for a closer look

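Reads on the opposite strand of Ifnk were not part of any comparison. They numbered 3, 2 and 6 in the colon libraries, 11 in all, where the sense count of Ifnk was 0. Lung had 3 such reads and mTEC 1, and cTEC and skin had none. Mob3b is annotated on that strand over the whole of Ifnk and had 2608 reads of its own in colon, the most of the 5 groups. Opposite-strand reads of Ifnb1 and Ifnl2 were 0 in every library, and those of Ifnl3 were 1 in all.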

How the results depend on the processing

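The number of members called between mTEC and cTEC was 4 and ranged from 2 to 5 when 1 library was left out. Leaving out any 1 of the skin libraries added Ifnl2 to these calls. The number of receptor chains called between mTEC and lung was 3 and ranged from 3 to 5 when 1 library was left out. It was 5 with only those groups fitted. The sign of differences that missed the threshold turned in 4 settings: Ifnlr1 of mTEC over cTEC went from 0.15 to -0.049 without cTEC replicate 3 and to -0.12 without mTEC replicate 2 (leave-one-out range up to 0.33), Ifnar1 of skin over colon from -0.087 to 0.073 with upper quartile scaling, and Ifnlr1 of skin over colon from 0.12 to -0.14 without skin replicate 1 (range up to 0.33). Genes called between mTEC and cTEC fell from 4714 to 3075 without cTEC replicate 2 and to 2408 without mTEC replicate 1. Upper quartile scaling shifted the all-gene median by over 0.1 on the log2 scale in several pairs, as from 0.14 to 0.36 for mTEC over lung. The replicate block left 3 members called between mTEC and cTEC in place of 4, with Ifnar2 at an edgeR adjusted p of 0.0538, and changed no other member's call. In the other pairs the replicate numbers do not pair the libraries. The exact permutation p of Ifnb1 stayed between 0.002 and 0.0178. Depth limits the ligands: with 0 to 6 reads in a group, a difference between skin, colon and lung was not detectable.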
